A study of Mus musculus with 117 samples.

Results

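The genes described here are the mouse olfactory and vomeronasal receptor genes, read in the chromatin of a cell that does not smell. They were chosen by name alone: every autosomal protein-coding gene whose symbol starts with Olfr, Vmn1r or Vmn2r. This gave 1458 of the 20665 autosomal protein-coding genes, or 7.06%, with 1104 Olfr, 231 Vmn1r and 123 Vmn2r genes. Their spans on the assembly GRCm38.p6, padded by 1 kb to each side, cover 44487 of the 12313718 autosomal bins of 200 bp, or 0.361%.

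The chromatin came from hepatocytes, which make up most of the liver's mass, of untreated female mice 12 weeks old. The strains were the laboratory strains C57BL/6J, DBA/2J, A/J, 129S1/SvImJ, NZO/HlLtJ and NOD/ShiLtJ and the wild-derived strains WSB/EiJ, PWK/PhJ and CAST/EiJ. ChIP-seq, which sequences DNA bound to a given histone mark, was done for H3K27me3, H3K27ac, H3K4me3 and H3K4me1 in 3 mice of each strain, with 1 input library per strain. Each strain's mice were pooled into 1 deposited segmentation, which gives each bin 1 of 14 state numbers, so a strain is 1 value throughout and an SD is the spread over 9 strains, not over mice. Neither the marks that make up a state nor the sequencing depth are given in the sources used here, and a state number is used only as a name. As a check of the tissue, all 8 hepatocyte markers examined, Alb and Hnf4a among them, had bins in state 3 in all 9 strains. Of all autosomal protein-coding genes, 45.9% had them. At the hepatocyte markers 95.8% ± 1.41 of bins were in states 1 to 12, and none were in state 13. Markers of other liver cells had less in states 1 to 12: 29.5% for endothelial, 15.3% for bile duct, 6.95% for Kupffer and 4.05% for stellate cells. Single ones were high, such as Cd68 of Kupffer cells (96.7%) and Sox9 of bile duct cells (74.6%). The 5 olfactory neuron markers examined had 13.8% in states 1 to 12, and 2 of them had state 3 in all 9 strains.

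Olfactory receptors are G-protein-coupled receptors of the main olfactory epithelium. Each olfactory neuron expresses a single receptor gene from a single allele and keeps the rest of the family silent. Vmn1r and Vmn2r genes encode the receptors of the vomeronasal organ, which detects pheromones and other social cues. The genes lie in large tandem clusters of close copies. Most Olfr and Vmn1r genes have an intronless coding exon, while Vmn2r genes carry a long extracellular domain spread over several exons. In the nose, silent receptor genes are packed into heterochromatin, and in most other tissues they are not transcribed.

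The stretches just before the annotated starts of 5 receptor genes are shown first, because these genes stand for the patterns described below. Olfr389 and Vmn1r235 were in state 13 throughout in all strains. Olfr1496 changed between states 13 and 14 from strain to strain, and Olfr734 was in state 14 throughout. Olfr1357, chosen after its values were seen, had promoter bins in states 1 to 12 in 7 strains. Each sequence is the 250 bases before the start in RefSeq on GRCm38.p6, written 5′ to 3′ on the gene's strand. Capitals mark CG dinucleotides and matches to the motifs CCCNNGGG, TAATTA and TATAAA.
Olfr389: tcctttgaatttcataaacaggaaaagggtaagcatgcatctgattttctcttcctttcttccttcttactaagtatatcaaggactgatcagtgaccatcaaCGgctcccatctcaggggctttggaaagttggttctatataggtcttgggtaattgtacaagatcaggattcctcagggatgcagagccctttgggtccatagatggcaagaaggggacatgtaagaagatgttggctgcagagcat
Vmn1r235: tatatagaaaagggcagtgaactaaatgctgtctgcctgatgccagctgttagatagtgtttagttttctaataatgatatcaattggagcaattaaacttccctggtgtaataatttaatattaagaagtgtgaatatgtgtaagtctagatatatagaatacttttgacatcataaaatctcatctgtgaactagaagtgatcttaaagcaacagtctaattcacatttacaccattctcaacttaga
Olfr1496: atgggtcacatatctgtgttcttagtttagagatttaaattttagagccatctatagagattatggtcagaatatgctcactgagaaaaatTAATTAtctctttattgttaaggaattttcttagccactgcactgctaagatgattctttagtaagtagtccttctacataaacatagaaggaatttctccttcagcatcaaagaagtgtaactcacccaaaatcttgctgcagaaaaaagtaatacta
Olfr734: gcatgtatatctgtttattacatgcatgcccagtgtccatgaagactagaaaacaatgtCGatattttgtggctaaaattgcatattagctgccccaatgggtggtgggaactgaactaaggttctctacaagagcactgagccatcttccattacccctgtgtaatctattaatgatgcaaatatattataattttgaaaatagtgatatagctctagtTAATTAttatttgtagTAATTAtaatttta
Olfr1357: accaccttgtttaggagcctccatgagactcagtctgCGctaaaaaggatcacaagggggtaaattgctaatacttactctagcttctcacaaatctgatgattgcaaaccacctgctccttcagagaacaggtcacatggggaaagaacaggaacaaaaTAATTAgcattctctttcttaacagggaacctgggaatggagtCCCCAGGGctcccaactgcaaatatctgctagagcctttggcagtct
Olfr389 lies on the minus strand, with the stretch at chr11:73780590-73780839, and Vmn1r235 on the plus strand, at chr17:21260177-21260426. Olfr1496 is on the plus strand at chr19:13780298-13780547. Olfr734 and Olfr1357 are on the minus strand, at chr14:50320869-50321118 and chr10:78618075-78618324. GC content was 43.6%, 31.2%, 32.4%, 33.2% and 45.6%, in the order printed. None of the 5 holds more than 1 CG dinucleotide.

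Low GC content and few CG dinucleotides were common to the family. A start was matched in RefSeq for 1260 of the 1458 members. Over these, the median GC content of the 250 bases was 34.8%, against 56.8% over 15197 other protein-coding genes. The observed-to-expected CG ratio had a median of 0.111 against 0.602, and 40.9% of the receptor stretches held no CG at all, against 4.20% of the others. The word TATAAA, the motif of the TATA box, was present in 37.7% of the receptor stretches and in 12.5% of all 16457 stretches of this length. Among 1645 stretches of other genes in state 14 in all strains, with a median GC content of 47.2%, it was present in 24.7%. TAATTA, a core bound by homeodomain proteins such as Lhx2 and Emx2, was present in 16.3% against 4.40%. CCCNNGGG, the core of the site bound by Ebf proteins, was present in 3.81% against 13.6%. The families differed here: it was in 22 of 116 Vmn2r stretches (19%, above the share of all stretches), in 2.77% of 938 Olfr stretches and in none of 206 Vmn1r stretches. Both strands were searched over the whole stretch, and a match is a run of letters, not a bound site. Words of A and T alone are more frequent in stretches of low GC content, and the part of base composition in these shares was not tested. In 962 of the 1260 members the annotated start is an ATG, so the model begins at the coding sequence and the true promoter may lie further upstream.

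Receptor genes were poor in 12 of the 14 states and rich in the other two. State 14 covered 82.0% ± 4.66 of receptor bins (SD, n = 9), against 69.4% ± 1.76 of the bins of the 19207 other protein-coding genes. State 13 covered 17.0% ± 4.63 of receptor bins and 9.62% ± 1.28 of the others. States 1 to 12 together, which held nearly all hepatocyte marker bins, covered 0.912% ± 0.0840 of receptor bins and 21% ± 1.16 of the others. Of the receptor bins outside state 14, 94.7% ± 1.14 were in state 13.

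By strain, state 13 covered 11.6% of receptor bins in NZO/HlLtJ, 13% in DBA/2J, 13.5% in C57BL/6J, 14.1% in WSB/EiJ and 16.8% in A/J. It covered 18.1% in CAST/EiJ, 19.1% in 129S1/SvImJ, 21% in NOD/ShiLtJ and 26.2% in PWK/PhJ. PWK/PhJ was the highest strain at receptor genes. The share at receptor genes was above that at other genes in 9 of 9 strains, by 7.41 ± 4.99 percentage points (exact sign-flip permutation test over strains, two-sided, adjusted over 14 states, p = 0.0039, the smallest it can give). As a ratio, receptor genes had 1.80 ± 0.584 times the share of other genes, from 1.17 in WSB/EiJ to 3.06 in PWK/PhJ. Each of states 1 to 12 was lower at receptor genes in 9 of 9 strains, and state 14 was higher in 9 of 9, with the same adjusted p. The excess of state 14 came close to 0 in PWK/PhJ, at 0.0978 points, against up to 18.1 points in another strain.

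Receptor genes are short, with a median length of 951 bp against 19555 bp for other genes, and the excess of state 13 was smaller against genes of like length. Against the 1128 other genes of up to 2 kb, the share of state 13 at all receptor genes was higher by 2.89 ± 5.39 points, in 6 of 9 strains, which did not pass the test (exact permutation, adjusted p = 0.137). Between receptor genes and other genes both of up to 2 kb, state 13 covered 17.7% ± 4.13 against 14.1% ± 1.42, a difference of 3.54 ± 4.84 points in 7 of 9 strains (exact permutation p = 0.031). Without PWK/PhJ this difference was 2.12 ± 2.43 points (exact permutation p = 0.0625). States 1 to 12 were also fewer at like length: in genes of up to 2 kb they covered 0.531% of receptor bins and 34.0% of the others, a difference of -33.5 ± 1.51 points in 9 of 9 strains (exact permutation p = 0.0039).

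**Figure D1:**
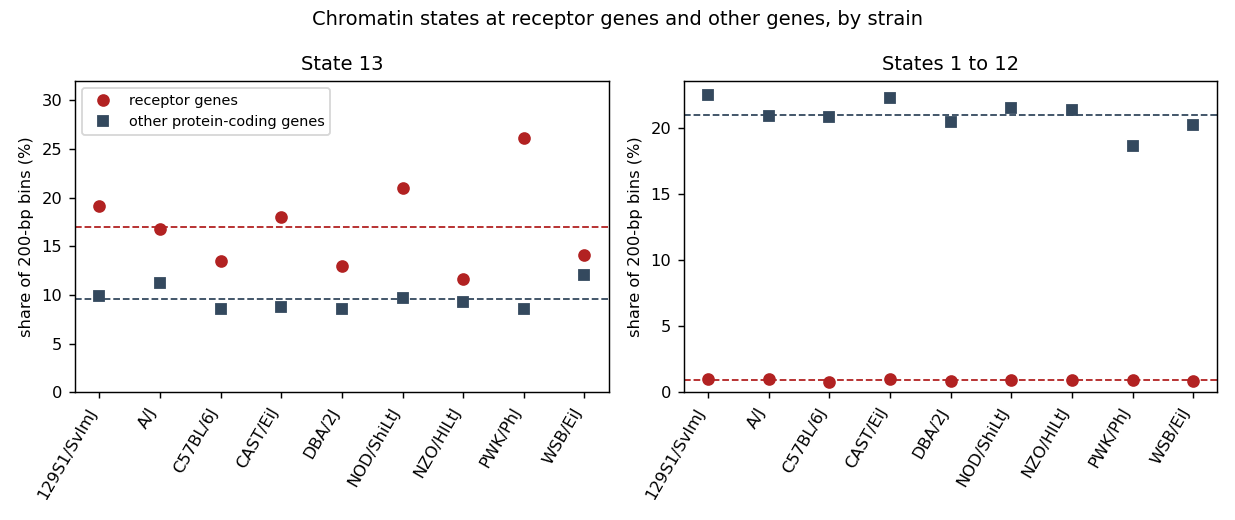
Share of 200-bp bins in state 13 (left) and in states 1 to 12 together (right) for each of 9 strains, at receptor genes (red circles) and other protein-coding genes (dark squares); dashed lines are means over strains. State 13 is higher at receptor genes in every strain, most in PWK/PhJ (26.2%), while states 1 to 12 stay near 0.912% there.

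The small share of receptor bins in states 1 to 12 had its own composition. State 6 made up 44.4% ± 6.02 of it, against 21.1% ± 2.64 of the bins in states 1 to 12 at other genes, and was the higher at receptor genes in 9 of 9 strains. State 10 made up 3.16% ± 1.57 against 1.04% ± 0.219, also in 9 of 9. State 3, found at all hepatocyte markers, made up 2.86% ± 0.911 against 4.18% ± 0.351. These shares of shares are given without a test.

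The families differed in how much of them lay outside state 14. The shares were 21% ± 4.51 for Olfr genes, the odorant receptors, 15.8% ± 3.13 for Vmn1r genes and 14.6% ± 5.58 for Vmn2r genes. Olfr genes exceeded Vmn1r genes by 5.22 ± 2.62 points and Vmn2r genes by 6.44 ± 2.24 points, each in 9 of 9 strains (exact permutation test, adjusted over 3 pairs, p = 0.0059 for both). Vmn1r and Vmn2r genes differed by 1.22 ± 3.30 points, from -6.00 to 5.14, which did not pass (exact permutation, adjusted p = 0.293). PWK/PhJ was the strain at -6.00, and without it the difference was 2.12 points (exact permutation, adjusted p = 0.023). The order of families was an order of state 13, which covered 20.1%, 14.9% and 13.6%. States 1 to 12 covered 0.856%, 0.917% and 0.985%, with no pair passing the test.

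Other gene families that come in many copies were compared in the same way. The 388 Zfp genes, which encode zinc finger proteins, had 28.6% ± 2.28 of their bins outside state 14, more than receptor genes in 8 of 9 strains, and the difference was -10.6 ± 5.67 points (exact permutation test, adjusted over 2 families, p = 0.0078). In PWK/PhJ receptor genes were the higher, by 3.06 points. Most of the Zfp share was in states 1 to 12 (23.4%), and state 13 covered 5.22%. The 57 clustered protocadherins, neuronal adhesion molecules whose genes lie in clusters, had 67.1% ± 10.4 outside state 14, of which 62.8 points were state 13. The difference of receptor genes from these was -49.1 ± 10.7 points, with the same sign in 9 of 9 strains (exact permutation, adjusted p = 0.0078).

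Further comparisons were chosen after the first results were seen. Trace amine and taste receptor genes (Taar, Tas1r and Tas2r, 53 genes) had 4.56% ± 2.25 of their bins in state 13, 12.5 ± 4.78 points less than the receptor genes in 9 of 9 strains, and 12.7% in states 1 to 12. The 584 autosomal genes annotated as receptor pseudogenes, a term for copies with a broken reading frame, had 11.6% ± 3.50 in state 13. This was 5.45 ± 1.57 points below the members, which are annotated as protein-coding, in 9 of 9 strains (exact permutation p = 0.0039 for both comparisons). Reading frames were not examined in any strain. Pseudogenes and genes of a family are close copies, and whether reads were required to map uniquely is not given in the sources used here.

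Single genes showed how the shares were made up. At least 1 bin outside state 14 in at least 1 strain was found in 1132 members, or 77.6%, where 96% of all autosomal protein-coding genes had one. In all 9 strains it was found in 209 members, or 14.3%, against 83% of all genes. A bin in states 1 to 12 was found in at least 1 strain in 186 members, or 12.8%, against 85.3% of all genes, and in all 9 strains in 24 members, or 1.65%, against 75.6%. State 14 throughout in all 9 strains was found in 326 members, or 22.4%, against 4.01% of all genes. Vmn2r genes, with a median length of 24544 bp, reached states 1 to 12 in at least 1 strain in 58 of 123 cases, against 108 of 1104 Olfr and 20 of 231 Vmn1r genes.

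Among genes of up to 2 kb the same counts were nearer to each other at their widest and far apart at their strictest. At least 1 bin outside state 14 in at least 1 strain was found in 73.5% of 1163 short receptor genes and 81.2% of 1128 other short genes. A bin in states 1 to 12 in all 9 strains was found in 7 of the short receptor genes, or 0.602%, and in 446 of the others, or 39.5%. Padding moved these counts. With 5 kb to each side, 392 members, or 26.9%, had a bin in states 1 to 12 in at least 1 strain, against 88.9% of all genes at the same padding. Without padding 116 had one, or 7.96%, against 83.8% of all genes.

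State 3 was nearly absent. It was found in at least 1 strain in 5 members (59.6% of all genes) and in all 9 strains in 2 members (45.9% of all genes), Vmn1r4 and Vmn2r29. The span of Vmn1r4 overlaps another protein-coding gene, and Vmn2r29 lies 2998 bp from one. Olfr1033 had state 3 in 7 strains, Vmn2r20 in 2 and Vmn2r21 in 1. Of all members, 10 have a padded span that reaches another protein-coding gene, and these had 12.0% ± 1.76 of their bins in states 1 to 12, against 0.762% ± 0.0663 for the 1448 that do not, higher in 9 of 9 strains (exact permutation p = 0.0039, a comparison chosen after the data were seen). The bins are pooled over genes, and the 10 were not alike. A bin in states 1 to 12 in at least 1 strain was found in 5 of them, against 181 (12.5%) of the 1448. Olfr1393 had 25.4% of its bins in these states and Vmn1r4 13.2%, while Vmn2r88 and Olfr524 had 0. The part of the neighbouring genes in the bins in states 1 to 12 was not tested.

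State 13 covered whole receptor genes in some strains and left them in others. A gene was called mostly in state 13 in a strain where this state covered over 50% of its bins. This held in at least 1 strain for 554 members, or 38.0%, against 15.3% of all genes, and in all 9 strains for 42 members, or 2.88%, against 2.51%. In exactly 1 strain it held for 181 members, or 12.4%, against 3.88% of all genes. Length mattered to these shares. Among genes of up to 2 kb, 38.5% of receptor genes and 25% of other genes were mostly in state 13 in at least 1 strain, 13.1% and 7.09% in exactly 1, and 2.75% and 4.34% in all 9. The share found in exactly 1 strain was thus the higher at receptor genes in both comparisons, and the share found in all strains was near that of all genes and below that of other short genes. In 116 of the 181 members found in exactly 1 strain, the strain was PWK/PhJ. Without PWK/PhJ, 99 members (6.79%) were mostly in state 13 in exactly 1 strain, against 2.98% of other genes of any length. It held in at least 1 strain for 438 (30.0%, against 13.1%) and in all of the other 8 for 66 (4.53%, against 3.32%).

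The number of members mostly in state 13 was 156 in NZO/HlLtJ, 177 in DBA/2J, 199 in C57BL/6J, 224 in both WSB/EiJ and CAST/EiJ, 235 in A/J, 267 in NOD/ShiLtJ, 271 in 129S1/SvImJ and 323 in PWK/PhJ. As shares of the family these ran from 10.7% in NZO/HlLtJ to 22.2% in PWK/PhJ. Among other genes the order differed: PWK/PhJ had the smallest share, 4.93% (947 genes), and WSB/EiJ the largest, 9.5% (1824 genes). PWK/PhJ thus stood at opposite ends of the 2 lists. It also held the largest number of members that were mostly in state 13 in all strains but one, as the strain that lacked it, with 24.

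**Figure D2:**
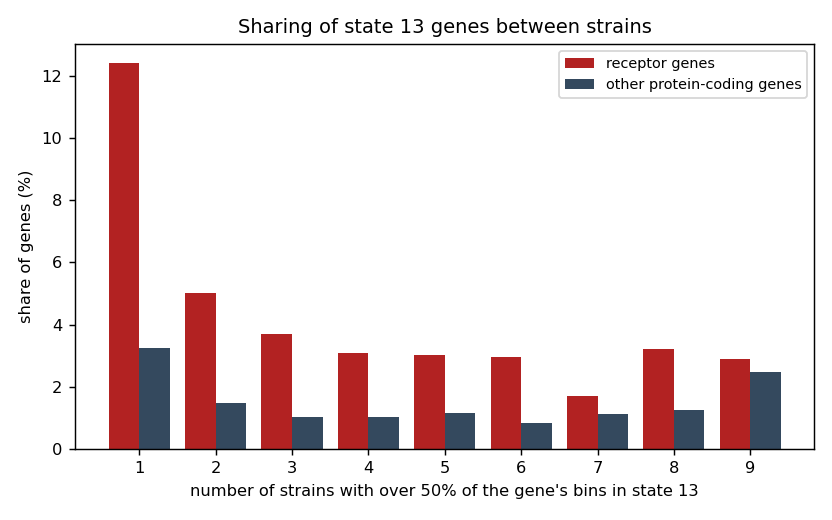
Share of receptor genes (red) and other protein-coding genes (dark) that were mostly in state 13 in a given number of strains, from 1 to 9; genes that were so in 0 strains (904 receptor genes) are left out. Receptor genes are most often mostly in state 13 in 1 strain alone (12.4%), and reach 2.88% for all 9 strains.

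Stretches of state 13 at receptor genes were short beside the clusters. Their number ranged from 507 in NZO/HlLtJ to 1161 in PWK/PhJ, and their median length over strains from 2.20 to 3.00 kb. Over all autosomes the median length of a state 13 stretch was 1400 to 1800 bp, shorter in every strain, a difference that was not tested. Stretches at receptor genes are those that touch a padded span, counted at their full length. Such a choice favours long stretches, so the 2 kinds of median cannot be compared directly. The longest in a strain ran from 33.0 kb in DBA/2J to 55.8 kb in WSB/EiJ. No stretch held more than 4 members. Stretches with 4 members were Olfr389 to Olfr392 in 129S1/SvImJ and NOD/ShiLtJ, and Olfr1413 to Olfr1410 in C57BL/6J and WSB/EiJ.

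Clusters were defined as runs of at least 5 members with gaps of at most 500 kb, which gave 45 clusters with 1407 members. Within them, state 13 was somewhat more frequent at receptor spans than in the DNA between genes. Receptor spans had 17.6% ± 4.78 of their bins outside state 14, against 13.7% ± 3.06 of the DNA between genes of any kind in the same clusters, higher by 3.87 ± 1.89 points in 9 of 9 strains (exact permutation p = 0.0039). State 13 made this difference, with 16.6% against 12.3%, while states 1 to 12 went the other way, with 0.908% against 1.41% and a difference of -0.505 points (exact permutation p = 0.0039). The 232 other protein-coding genes that lie inside the clusters had 9.76% ± 1.26 in state 13 and 22.0% ± 1.43 in states 1 to 12, near the values of other genes elsewhere.

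Clusters ranged from nearly free of state 13 to mostly covered by it. The 5 with the largest share of receptor bins outside state 14 were Olfr288 to Olfr279 on chromosome 15 (9 members, 74.6% ± 10), Olfr1416 to Olfr12 on chromosome 1 (8 members, 67.6% ± 19.9), Olfr20 to Olfr412 on chromosome 11 (30 members, 66.2% ± 6.85), Olfr62 to Olfr1328 on chromosome 4 (13 members, 58.4% ± 22.3) and Olfr164 to Olfr171 on chromosome 16 (8 members, 51.4% ± 13.4). In these, state 13 accounted for nearly all of the share. The 5 with the smallest were Olfr1275 to Olfr1318 on chromosome 2 (37 members, 0.793% ± 1.67), Olfr16 to Olfr418 on chromosome 1 (6 members, 1.56% ± 3.05), Vmn2r57 to Vmn2r126 (8 members, 3.29% ± 4.21) and Vmn2r46 to Vmn1r71 (13 members, 3.54% ± 4.90), both on chromosome 7, and Olfr987 to Olfr1274 on chromosome 2 (222 members, 6.12% ± 6.16). Larger clusters tended to have less state 13. The median over clusters was 25.1% for 24 clusters of 5 to 20 members and 15.1% for 15 of 21 to 60 members. It was 8.36% for 6 clusters of more than 60. The classes overlapped widely, with ranges of 0.260% to 74.6%, 0.754% to 65.9% and 4.91% to 46.5% in this order. Sizes and shares are described here without a test.

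PWK/PhJ had the highest state 13 share in 23 of the 45 clusters, which hold 1021 members, and the lowest in 11 clusters, which hold 159. In the first kind the mean of the other strains had a median over clusters of 10.5%, from 0.201% to 48.5%, and PWK/PhJ a median of 28.7%. In the second kind the other strains had a median of 39.7%, from 8.66% to 77.5%, and PWK/PhJ 13.7%. The ranges of the other strains overlapped between the kinds. In the cluster Olfr1416 to Olfr12, state 13 covered 20.5% in PWK/PhJ and between 60.2% and 89.4% in the others. In Olfr987 to Olfr1274, the cluster with the most members, it covered 21% in PWK/PhJ and at most 7.32% in the others.

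**Figure D3:**
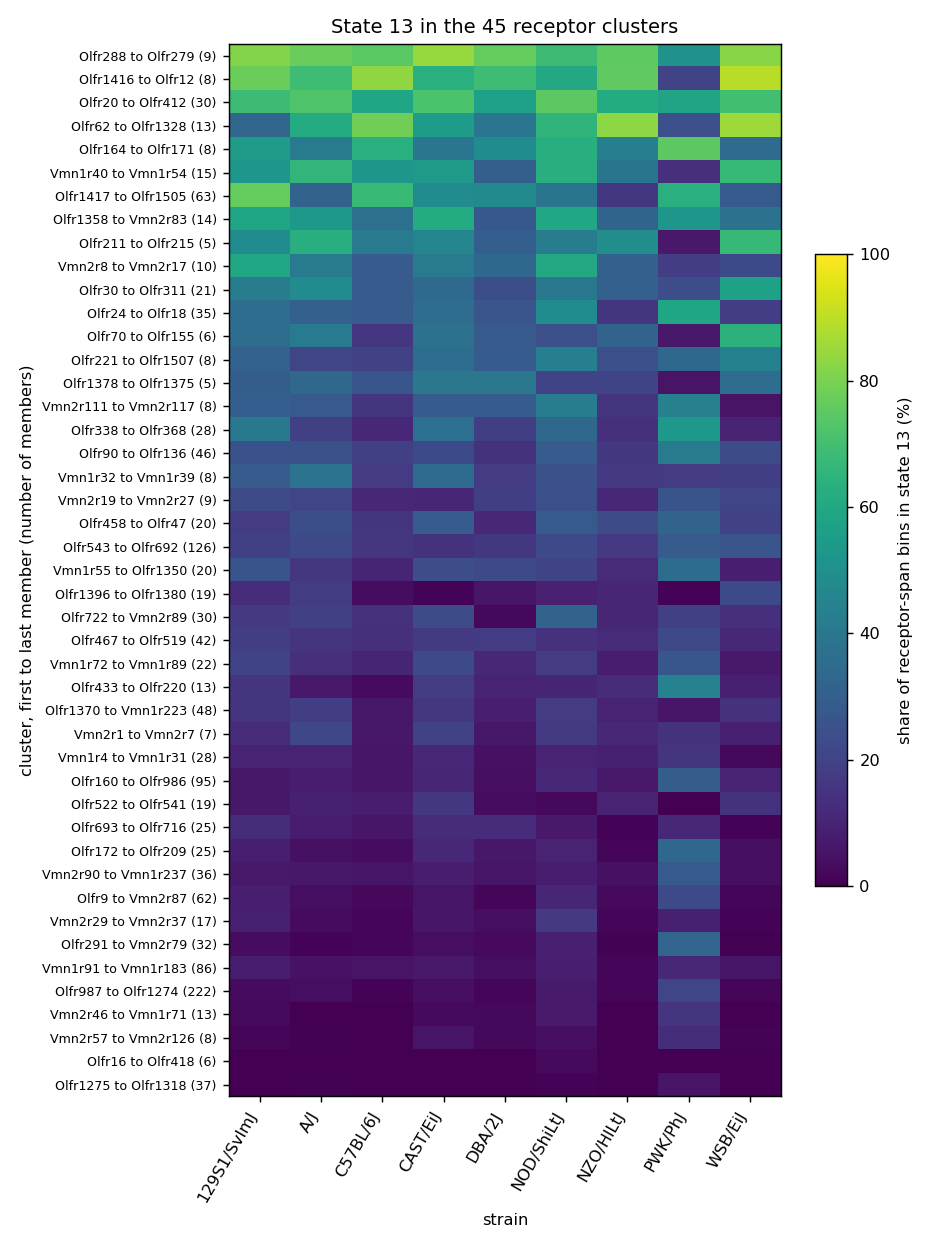
Share of receptor-span bins in state 13 for 45 clusters (rows, from the largest to the smallest share outside state 14, with the number of members) in 9 strains (columns); the colour scale runs from 0 to 100%. PWK/PhJ is dark in several upper rows, such as Olfr1416 to Olfr12 (20.5%), and lighter than the others in most lower rows.

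The cluster Olfr1417 to Olfr1505 on chromosome 19, singled out after its values were seen, differed most widely between laboratory strains. Of its 63 members, 48 were mostly in state 13 in 129S1/SvImJ, 44 in C57BL/6J, 42 in PWK/PhJ, 32 in DBA/2J, 29 in CAST/EiJ, 21 in NOD/ShiLtJ, 17 in A/J, 17 in WSB/EiJ and 7 in NZO/HlLtJ. The median share of state 13 over its members was 100% in 129S1/SvImJ and 0 in NZO/HlLtJ. Neighbouring receptor genes tended to share their pattern over strains. Over 1069 members whose share varied, the correlation of the 9 strain values between members of a pair had a median of 0.560 for 311 pairs up to 20 kb apart, 0.533 from 20 to 100 kb, 0.479 from 100 to 500 kb and 0.094 for pairs on different chromosomes. Without PWK/PhJ these medians were 0.374, 0.323, 0.251 and 0.064. Pairs share members and strains, and padded spans up to 20 kb apart can lie in 1 stretch of state 13.

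In 8 strains the share of state 13 was lowest at members over 200 kb from other genes, and PWK/PhJ departed from this. State 13 covered 14.2% ± 2.76 of the bins of 52 members within 10 kb of another protein-coding gene, 26.5% ± 3.85 of 282 members at 10 to 50 kb, 21.1% ± 5.31 of 574 members at 50 to 200 kb and 9.12% ± 6.30 of 550 members over 200 kb away. In the last class PWK/PhJ had 24.4%, and the other strains lay between 4.10% and 11.6%. In the class at 10 to 50 kb PWK/PhJ had 25.9%, inside the range of the others. Members in state 14 throughout in all strains made up 17.3% of the nearest class, then 15.6%, 20.2% and 28.5%. These classes are described without a test.

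DNA far from genes was then compared with itself. Among bins over 200 kb from any other protein-coding gene, receptor spans had 9.04% ± 6.35 in state 13, other bins inside receptor clusters 6.42% ± 4.12 and bins outside the clusters 8.41% ± 2.98. Receptor spans exceeded the bins around them in the clusters in 9 of 9 strains, by 2.62 ± 2.47 points (exact permutation p = 0.0039). They differed from bins outside the clusters by 0.628 ± 3.78 points, from -3.56 to 8.89, higher in 6 of 9 strains (exact permutation p = 0.703), and without PWK/PhJ by -0.405 points (exact permutation p = 0.609). PWK/PhJ was the highest strain in all 3 kinds of DNA, with 24.5%, 16.2% and 15.7%. Outside the clusters the other strains lay between 5.50% and 9.29%.

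**Figure D4:**
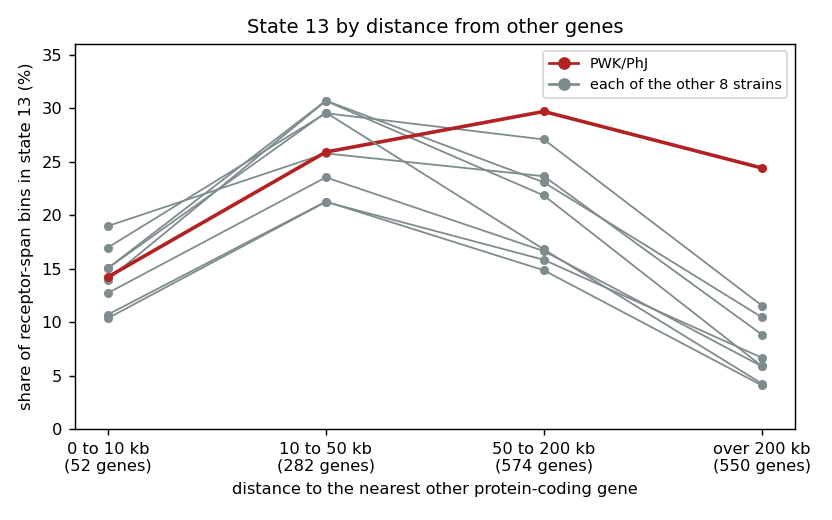
Share of receptor-span bins in state 13 (vertical axis) for 4 classes of distance to the nearest other protein-coding gene (horizontal axis, with the number of receptor genes), 1 line per strain. In 8 strains the share is lowest over 200 kb from other genes (4.10% to 11.6%), while PWK/PhJ (red) stays at 24.4%.

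Receptor genes differed between strains more than other genes did where they were outside state 14. Over bins outside state 14 in at least 1 strain of a pair, 41.2% ± 4.78 were in the same state in both at receptor genes, against 51.7% ± 3.69 at other genes, a difference of -10.5 ± 2.26 points with the same sign in 9 of 9 strains (exact permutation p = 0.0039). A strain's value is the mean over its 8 pairs, so each pair enters the values of both its strains, and the test treats the 9 values as separate although they share pairs. Over all bins, most of which are in state 14 in both strains, the difference turned around, with agreement at receptor genes higher by 2.61 points (exact permutation p = 0.012). The pair with the lowest agreement was PWK/PhJ and WSB/EiJ, at 23.1%, and the highest was 129S1/SvImJ and C57BL/6J, at 52.0%. Of all disagreement between pairs at receptor genes, 94.6% was between states 13 and 14, against 37.3% at other genes. Of the receptor bins in state 13 in at least 1 strain, 7.31% were so in all 9 strains and 35.8% in 1 strain alone, which was PWK/PhJ in 57.4% of these.

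Strains with more of the autosomes outside state 14 did not detectably have more of their receptor genes outside it. Over the 9 strains Pearson's r was 0.224 (exact permutation p = 0.569, adjusted over 2 relations 0.569) and Spearman's rho 0.417 (exact permutation p = 0.270, adjusted 0.270). The strains farthest from the median on the autosomes were DBA/2J and C57BL/6J, and with both left out r was -0.174 (exact permutation p = 0.706). For state 13 alone, r was 0.339 (exact permutation p = 0.374, adjusted 0.569) and rho 0.500 (exact permutation p = 0.178, adjusted 0.270). A range of r from 0.067 to 0.629 was seen when single strains were left out, and none passed the test.

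Named genes give these patterns in single loci. The 10 members with the most bins outside state 14 were Olfr285, Olfr389, Olfr393, Olfr689, Vmn1r179, Vmn1r235 and Vmn1r236, each in state 13 in all bins of all 9 strains, and Olfr94, Olfr222 and Vmn1r234, each at least 94.4% on average. They are on chromosomes 7, 11, 15 and 17. Olfr389 (chr11:73776387-73780589) and Olfr393 (chr11:73847185-73848123) share a cluster, as do Vmn1r234, Vmn1r235 and Vmn1r236 (chr17:21286533-21287653 for the last). The stretches printed above for Olfr389 and Vmn1r235 lie in this unbroken state 13. With 5 kb of padding the mean share stayed above 98.9% at Olfr285, Vmn1r235 and Vmn1r236 and was 85.0% at Olfr389 and 49.8% at Olfr94, so some of these stretches end close to the gene.

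The 10 members that differed most between strains were mostly all or nothing. Olfr1484, Olfr1461 and Olfr1467, all of the chromosome 19 cluster, were entirely in state 13 in 129S1/SvImJ, C57BL/6J and PWK/PhJ and had none of it in A/J, NZO/HlLtJ and WSB/EiJ. Olfr1496 (chr19:13780548-13781614), whose upstream stretch is printed above, followed the same pattern, with 76.5% in DBA/2J and 29.4% in CAST/EiJ. Olfr410 was all in state 13 in A/J, CAST/EiJ, NZO/HlLtJ, PWK/PhJ and WSB/EiJ and had 0 in the other 4 strains. Vmn1r52 was all in state 13 in A/J, C57BL/6J, CAST/EiJ, NOD/ShiLtJ and WSB/EiJ and had 0 in the rest. Olfr263, Olfr58 and Olfr384 had values in between in several strains. Olfr541 (chr7:140704253-140705191) changed in another way: state 4 covered all of its bins in 129S1/SvImJ, A/J and WSB/EiJ, 93.3% in NOD/ShiLtJ and 40.0% in NZO/HlLtJ, and no bin of it was in states 1 to 12 in C57BL/6J or DBA/2J.

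**Figure D5:**
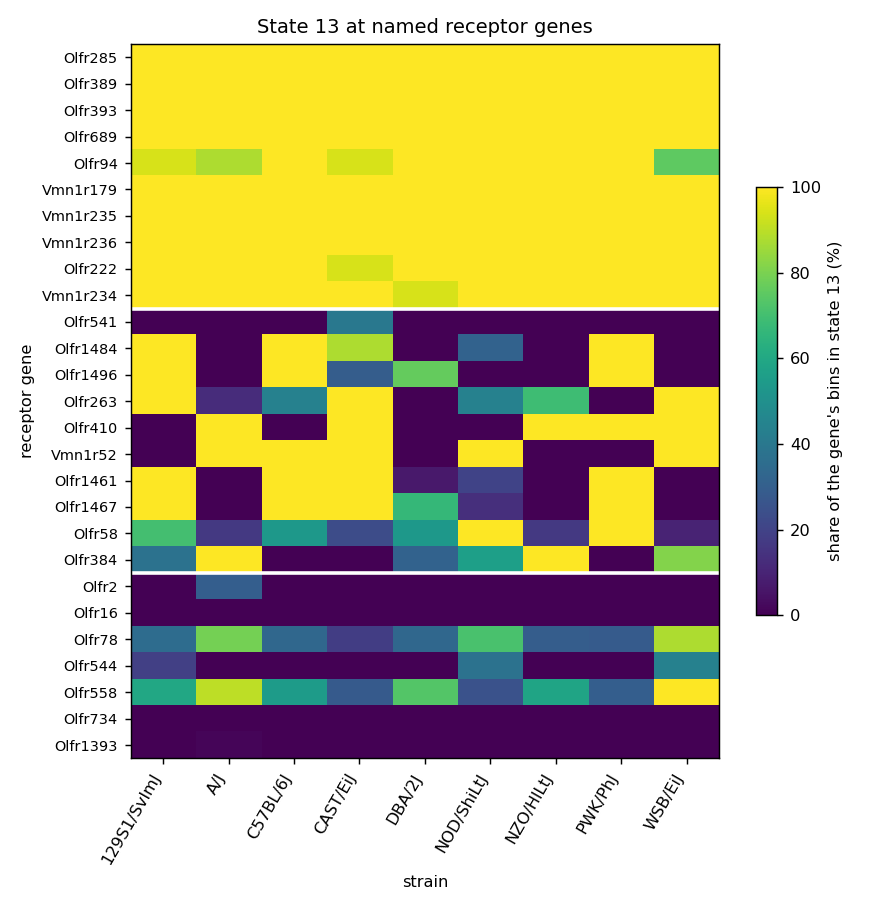
Share of bins in state 13 at named receptor genes (rows) in 9 strains (columns), on a scale from 0 to 100%; white lines separate the 10 genes with most bins outside state 14, the 10 that differed most between strains, and 7 receptors reported outside the nose. The first block is near 100% throughout, except Olfr94 with 75% in WSB/EiJ. Most genes of the second block range from 0 to 100% over strains, some with values in between. Olfr541 there reaches at most 40% (CAST/EiJ), and Olfr58 is never below 10% (WSB/EiJ). Olfr734 is at 0 in all strains.

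The 10 members with most bins in states 1 to 12 were spread over several chromosomes. Olfr1160 (chr2:88005817-88006776) led with 51.9% ± 17.2, from 6.67% in PWK/PhJ to 60% in 5 strains. Olfr541 followed with 50.4% ± 47.0, and Vmn1r90 with 33.3% ± 28.3, which ran from 0 in CAST/EiJ to 100% in PWK/PhJ, where state 6 held 13 of its 15 bins. Vmn2r20 (31.5%), Olfr1367 (26.4%), Olfr1393 (25.4%), Vmn1r192 (25%), Olfr318 (21.5%), Olfr1033 (21.3%) and Olfr1442 (20.9%) made up the rest. Some of these spans touch another annotated element. Vmn1r90 overlaps a transcribed pseudogene, Nlrp5-ps, Vmn2r20 overlaps the pseudogene Gm18375, and Olfr1393 lies 846 bp from Mgat1, a glycosyltransferase gene. Olfr1160 and Olfr1033 lie 494952 and 501705 bp from the nearest other protein-coding gene. At Olfr318, state 6 held 3 to 5 bins in 8 strains, and in PWK/PhJ state 13 covered the whole span; without padding its share in states 1 to 12 was 0, so those bins flank the gene.

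Several receptors are known from tissues outside the nose, and 7 of these were examined. Olfr78 (chr7:102740721-102759471), a short-chain fatty acid receptor of kidney vessels and the carotid body, had 18.1% (CAST/EiJ), 33.3% (median) and 87.6% (WSB/EiJ) of its bins in state 13. Its neighbour Olfr558, a related receptor of blood vessels, had 25% (NOD/ShiLtJ), 58.3% and 100% (WSB/EiJ). Olfr544, reported in liver and fat cells, had state 13 in 3 strains, at most 43.8%, and no bin in states 1 to 12. Olfr734, reported as a receptor for asprosin in liver, was in state 14 in all 16 bins in all 9 strains. Olfr2 (10% to 30%) and Olfr1393 (20.9% to 31.4%), a receptor of the kidney tubule, had bins in states 1 to 12 in 9 of 9 strains. Olfr16, known from sperm, had such bins in 3 strains, with 70.6% in WSB/EiJ, 11.8% in PWK/PhJ and 5.88% in A/J. At Olfr2 state 6 held 2 or 3 of the 20 bins in each strain. A chromatin state does not show whether a receptor is transcribed.

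Upstream windows differed a little from the genes themselves. For 298 members whose annotated start is not an ATG, the window from 250 bases before to 50 after the start had 23.1% ± 3.95 of its bins outside state 14, against 21.2% ± 4.85 of the remaining bins of these genes, higher by 1.96 ± 1.54 points in 9 of 9 strains (exact permutation p = 0.0039). States 1 to 12 covered 1.60% ± 0.410 of the windows and 0.500% ± 0.0788 of the bodies, and state 13 covered 21.5% and 20.7%. Over the 1260 matched starts, the window was in state 14 in all strains for 49.6%, against 10.8% of other genes, and in state 13 in all strains for 2.62%, against 2.57%. A bin in states 1 to 12 in at least 1 strain was found at 2.94% of receptor windows and 78.0% of the others. The 37 receptor windows of the last kind had a median GC content of 38.4%, and the 33 in state 13 in all strains 37.2%, both far below the median of other genes.

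Genes that work with the receptors in the nose were described from lists. Of 12 genes of odorant signalling, 9 had a bin in states 1 to 12 in all 9 strains, a share near the 75.6% of all genes. Rtp1 and Rtp2, which carry receptors to the cell surface, were in state 14 throughout. Gnal, the olfactory G protein, had 30.8% ± 5.12 of its bins in state 13 and 11.1% in states 1 to 12. Omp, the marker of mature olfactory neurons, had 85.4% ± 26.4 in states 1 to 12 and state 3 in no strain. The channel gene Cnga4 had 32.5% ± 4.55 in states 1 to 12. State 3 was found in all 9 strains at 4 of the 12 genes, Gnal and Cnga4 among them, where 45.9% of all genes had it. Whether the spans of these listed genes overlap other genes was not examined, so such bins may belong to a neighbour. Of 3 genes of vomeronasal signalling, the channel Trpc2 had no bin in states 1 to 12 in any strain, and Gnai2, a G protein used in many cells, had 90.6% ± 9.75. All 17 genes of receptor choice and nuclear organisation had bins in states 1 to 12 in all 9 strains, against 75.6% of all genes. Of these, 11, such as the histone demethylase Kdm1a, the lamin B receptor Lbr and the transcription factor Atf5, had state 3 in all 9, where 45.9% of all genes had it. These 11 had no bin in state 13 in any strain. The other 6 are transcription factors, and state 13 covered 44.2% ± 15.9 of Ebf1, 45.8% ± 12.1 of Ebf4, 72.8% ± 7.62 of Ebf2, 69.4% ± 7.57 of Ebf3, 58.8% ± 5.99 of Lhx2 and 55.3% ± 6.53 of Emx2.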

How the data were processed

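ChIP-seq of 4 histone marks was made in hepatocytes of 9 mouse strains, with 13 libraries per strain and 117 in all. The deposited files hold a category, the state number of each stretch, made by the authors from a strain's libraries; they are no count, signal or score. Per the submitters' processing notes the genome build is mm10, and FastQC 0.11.5 and MACS 1.4.2 were used. The aligner, the segmentation tool and whether reads of a strain were mapped to its own genome are not given in the sources used here. Depth is unknown, so no counting interval is given.

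The segmentations were converted to 1 state number per bin of 200 bp. Gene spans and starts came from RefSeq tables of GRCm38.p6, the same build. Other genes' bins exclude those of receptor spans. Differences within strains were tested by flipping their signs in all 512 patterns, an exact two-sided permutation test whose smallest p is 0.0039, with the Benjamini-Hochberg method where several states, families or relations were tested. A call is an adjusted or single p below 0.05. The strains are related by descent, so their values are not independent of each other. The members, lists and tests were chosen with earlier results of these data known. Named members are the 10 with the largest mean share outside state 14, the 10 with the largest share in states 1 to 12, the 10 that differ most over the 36 strain pairs, and 7 receptors reported outside the nose; named clusters are the 5 highest and 5 lowest. Genes on X and Y were left out. Alternatives changed padding, the comparison genes, the clusters, the states counted and the strains. The code (scipy 1.17.1, pandas 2.3.3, numpy 2.4.6 and matplotlib 3.10.9 under Python 3.11.15) was tested on simulated data.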

Additional observations from a re-analysis of the deposited data

Results flagged for a closer look

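In 30 sets of 9 strain values, the gap between the highest or lowest strain and its nearest neighbour was compared with the whole range. In 10 sets the gap was above Dixon's 95% critical value for 9 values. Chance flags about 1 set in 20 only where values are independent and normally distributed. Some sets here share bins, and some are clusters named for their highest or lowest shares. In the cluster Olfr1275 to Olfr1318 the share was 0 in DBA/2J and WSB/EiJ. The 10 flags therefore cannot be compared with that rate, and they only mark sets for a closer look. In 8 of the 10 flagged sets the strain was PWK/PhJ.

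PWK/PhJ agreed least with the other strains at receptor genes, at 29.8% of bins outside state 14, against 40.4% for the next strain. At receptor genes over 200 kb from another gene it had 24.4% of bins in state 13, against 11.6% for the next. It stood below the others in the share outside state 14 in the clusters Olfr288 to Olfr279 (51.1%, next 68.4%) and Olfr1416 to Olfr12 (20.5%, next 60.2%). It stood above them in Olfr1275 to Olfr1318 (5.18%, next 0.921%), Vmn2r57 to Vmn2r126 (13.3%, next 6.09%), Vmn2r46 to Vmn1r71 (15.2%, next 7.27%) and Olfr987 to Olfr1274 (21.7%, next 8.20%). Each strain's mice were pooled, so no spread within PWK/PhJ can be set beside these values.

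WSB/EiJ stood above the others in the cluster Olfr16 to Olfr418, with 9.38% of bins outside state 14 against 2.34% for the next strain; all of this is Olfr16 itself, where 12 of 17 bins were in states 1 to 12. The share of Olfr bins in states 1 to 12 was highest in 129S1/SvImJ, at 1.10% against 0.893% for the next strain.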

How the results depend on the processing

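With each strain left out in turn, the share of receptor bins outside state 14 stayed below that of other genes, by between -14.2 and -12.0 points, and state 13 stayed above, by 6.14 to 8.09 points; all 14 states kept their call. The excess of state 13 did not pass against other genes of up to 2 kb, at 2.89 points (exact permutation, adjusted p = 0.137), an alternative added after the data were seen. Merging states 13 and 14 turned around the difference between receptor spans and the DNA between them, to -0.505 points, and the differences Olfr minus Vmn1r, to -0.0612, Olfr minus Vmn2r, to -0.129, and Vmn1r minus Vmn2r, to -0.0677, since state 13 then no longer counts. With the mean of single genes, Vmn1r minus Vmn2r was -0.0473; without single strains it ranged from 0.730 to 2.12, and passed without PWK/PhJ. Agreement over all bins was higher at receptor genes, by 2.61 points. The difference between receptor spans and other DNA far from genes ranged from -0.405 to 1.15 without single strains.

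Counts moved with padding. Members outside state 14 in all 9 strains numbered 209, 126 without padding and 374 with 5 kb. Those with a bin in states 1 to 12 in at least 1 strain numbered 186, 116 and 392, and in all 9 strains 24, 14 and 67. Requiring 2 bins, comparing with other genes of every kind, clusters by 200 kb, leaving out chromosome 2 or 7, and giving segments of 1 bin the state before them changed no call. No paired analysis was possible because each strain's mice were pooled into 1 segmentation and carry no separate values. Unknown depth, combined mice and reads from close copies limit every value.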

Other observations

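The 7 receptor genes on X, outside the autosomal rule, had 93.0% ± 11.9 of their bins in state 13 (SD, n = 9 strains), and all bins of X had 85.8% ± 4.49. Olfr1320, Olfr1321, Olfr1322, Olfr1323, Olfr1324 and Olfr1325 were in state 13 in all bins of all 9 strains. Vmn2r121 had 80.5% ± 33.0, with 18.5% in the lowest strain.

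Members outside any cluster numbered 51. Their mean share of state 13 over genes was 30.3% and their median 9.72%, against 17.6% and 4.98% for the 1407 members in clusters. Members in clusters with a mean of over 50% in state 13 numbered 68, in 5 clusters, and members in clusters under 5% numbered 286, also in 5 clusters.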
